A study of Mus musculus with 12 samples.

Results

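Antigen receptor loci are the stretches of the genome in which developing lymphocytes join V, D and J gene segments into the genes of antibodies and T cell receptors. CTCF recognises a core DNA motif through its zinc fingers and stalls the cohesin complex as it extrudes chromatin loops, and the direction of the motif sets the side on which cohesin halts. In lymphocyte precursors this process folds the large receptor loci and brings distant V segments to the D and J segments. The V segments lie at one end of a locus and the constant genes at the other, so each CTCF motif can be described as pointing toward the constant genes or away from them.

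CTCF sites were collected in 4 such loci of the mouse, in organs that are not lymphoid: brain, heart and lung. A member was any CTCF peak whose summit lay in Igh (antibody heavy chain, chr12:113220000-116010000), Igk (kappa light chain, chr6:67555000-70726000), Tcra/Tcrd (T cell receptor alpha and delta, chr14:52420000-54225000) or Tcrb (T cell receptor beta, chr6:40890000-41560000), all in mm10. This gave 178 of the 183882 peaks of 6 lists, which merged into 65 of 56248 sites. Sites are numbered within each locus from the V end to the constant end.

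The embryos were C57BL/6, given as C57BL/6 N in the authors' methods, at embryonic day E18.5. They were either wild type or carried the Ctcf homozygous mutation, the R567W exchange in a zinc finger of CTCF introduced by CRISPR/Cas9 editing. Each organ and genotype was represented by 1 CTCF ChIP library and 1 input library, 12 in all, and the 6 ChIP peak lists were analysed. With 1 library per group there was no replicate check and no test between genotypes, and all intervals cover counting error only. The mutation was present in every cell of the organ, homozygotes do not survive birth for long, and each organ is a mixture of cell types, so a lower value can mean fewer occupied cells or less binding per cell, which cannot be told apart. Peak lists hold no measure of organ markers or of Ctcf itself, so the labels could not be checked against the data.

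The complete brain lists held 36034 wild-type and 38390 mutant peaks, the heart lists 21059 and 11515, and the lung lists 44386 and 32498. Strength is given as the summit pileup, the number of sequenced fragments stacked over the peak's highest point, which was solved as the whole number that gave back the deposited −log10 p within a relative tolerance of 1e-04, as it did for 100% of lines. The lowest pileup that entered a list was between 7 and 9 reads, and the background expected from the whole genome was between 1.42 and 2.02 reads. These values set what could be listed, so a site missing from a list fell short of the caller's threshold and was not shown to be unbound. In the wild-type lung list the local background at peaks was raised, with a median of 2.38 times the genome background against 1.05 to 1.18 times in the other lists.

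The loci differed in how densely they were bound. Tcrb held 12 sites and Tcra/Tcrd 31, which is 17.9 and 17.2 per Mb, close to the genome-wide density of 20.6 per Mb. Igh held 8 and Igk 14, which is 2.87 and 4.42 per Mb. Of the 65 sites, 64 were intergenic and 1 lay in an intron, of the annotated gene AC153851.1 beside Trbv10. Of the 65, 29 lay within 1 kb of an annotated transcript start, V segments included, against 21.7% of all merged sites.

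**Figure D1:**
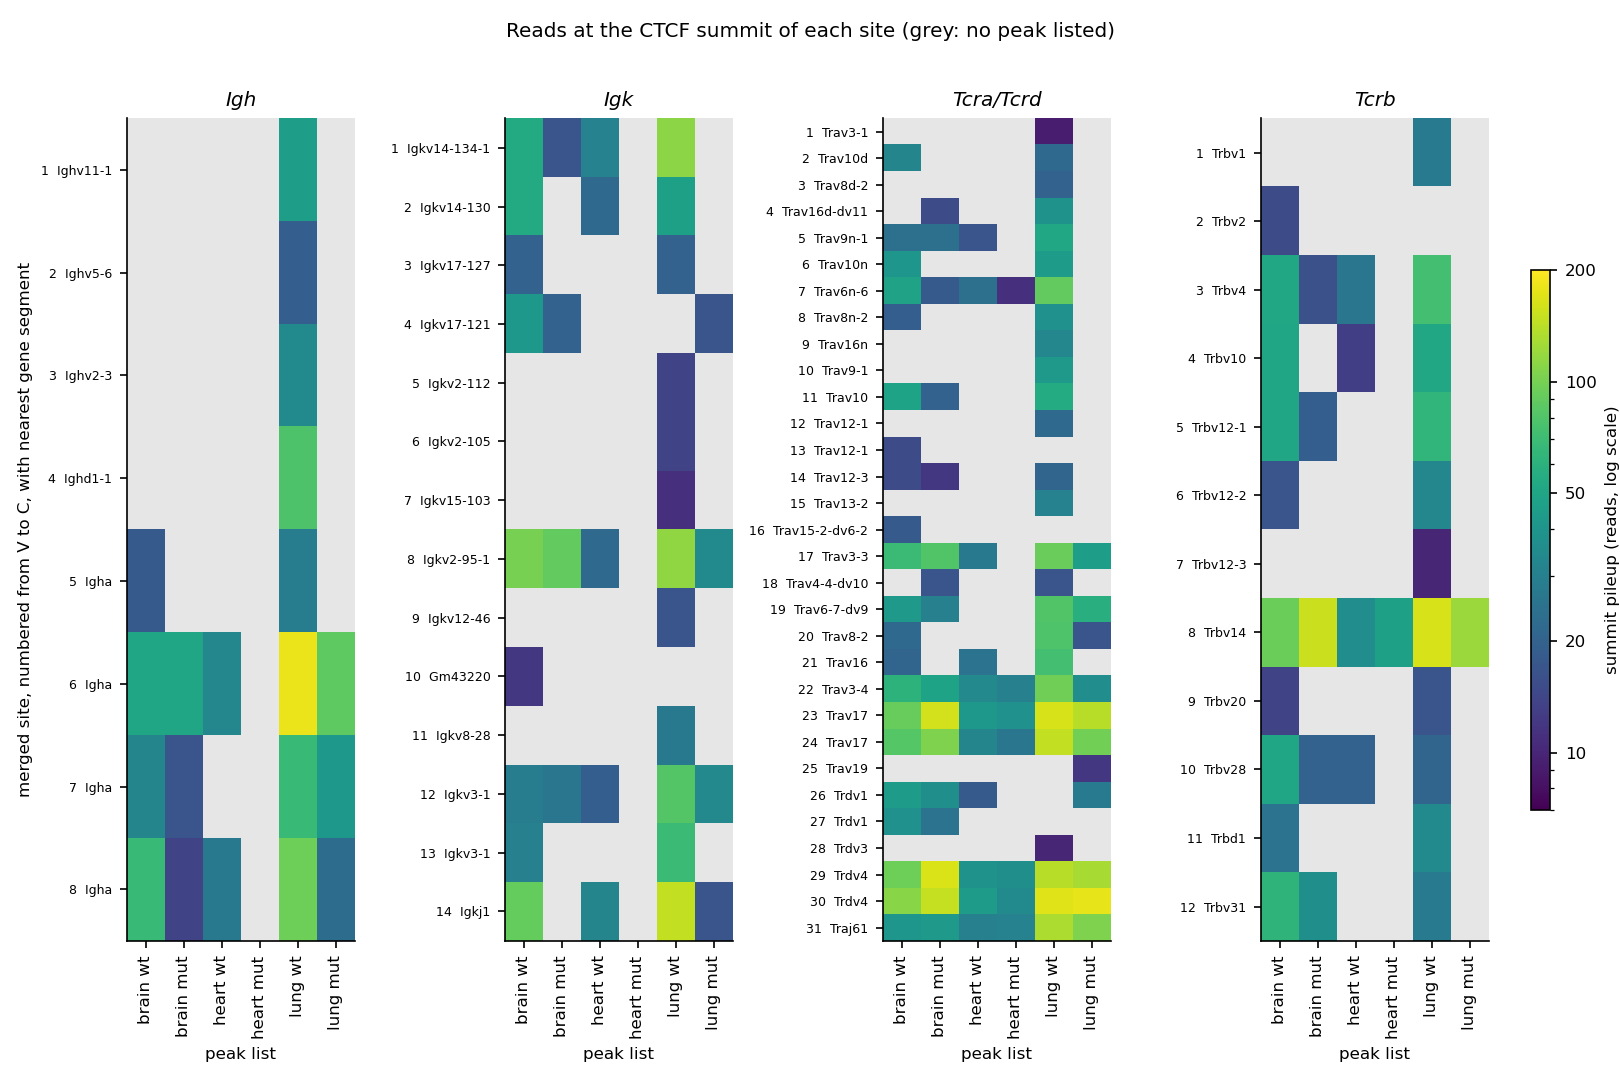
Summit pileup in reads (colour, log scale) of each of the 65 merged sites in the 6 peak lists, 1 panel per locus, with sites ordered from V to C and labelled by the nearest gene segment; grey means that no peak was listed. The Tcra/Tcrd sites near Trav17 and Trdv4 and the Tcrb site near Trbv14 are bright in both genotypes, while most other sites are grey in the mutant lists.

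Every one of the 65 sites held the core motif within 100 bp of its summit, called on either strand with a 19-column matrix learned from brain peaks outside the loci. The background for this call was 79.3% of all merged sites and 86.3% of those outside promoters. Windows 1100 bp away held it at 5 of the 65 sites. The median motif score was 17.95 in the loci and 15.28 over all sites with a core motif. At the stricter threshold of 1e-05 the share was 89.2%.

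Sequences that carry the account are printed 5′ to 3′ on the strand of the core motif, as the 30 bases before the motif in lower case and the core motif in capitals, from the GRCm38 (mm10) genome. The array beyond the Igh constant genes comes first, because the 7 motifs collected there lie within 5 kb and all point the same way.
Igh element 1, chr12:113220020-113220068, forward: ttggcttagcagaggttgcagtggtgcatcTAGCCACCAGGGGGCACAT
Igh element 2, chr12:113220653-113220701, forward: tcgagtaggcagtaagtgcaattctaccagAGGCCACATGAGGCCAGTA
Igh element 3, chr12:113221375-113221423, forward: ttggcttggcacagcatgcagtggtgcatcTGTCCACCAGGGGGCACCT
Igh element 4, chr12:113222183-113222231, forward: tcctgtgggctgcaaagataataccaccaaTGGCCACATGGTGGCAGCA
Igh element 5, chr12:113222448-113222496, forward: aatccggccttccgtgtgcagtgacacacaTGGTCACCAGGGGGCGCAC
Igh element 6, chr12:113222920-113222968, forward: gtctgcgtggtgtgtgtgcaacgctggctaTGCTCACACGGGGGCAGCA
Igh element 7, chr12:113224363-113224411, forward: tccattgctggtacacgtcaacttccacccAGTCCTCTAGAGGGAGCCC

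Next come the sites between the last V segment and the J segments of Igk, and the sites at either side of the D, J and C segments of Tcrb, because these positions separate V segments from their joining partners.
Igk site 12, chr6:70709466-70709514, reverse: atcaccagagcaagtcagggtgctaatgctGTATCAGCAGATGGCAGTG
Igk site 13, chr6:70713279-70713327, forward: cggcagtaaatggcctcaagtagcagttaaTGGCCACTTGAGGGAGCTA
Igk site 14, chr6:70714369-70714417, forward: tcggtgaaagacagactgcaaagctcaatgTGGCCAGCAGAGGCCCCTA
Tcrb site 11, chr6:41530175-41530223, reverse: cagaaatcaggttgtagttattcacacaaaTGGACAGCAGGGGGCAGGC
Tcrb site 12, chr6:41556570-41556618, reverse: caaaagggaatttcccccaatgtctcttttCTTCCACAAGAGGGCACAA

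The last set holds the 7 sites that were listed in all 6 lists.
Tcra/Tcrd site 22 (Trav3-4), chr14:53776842-53776890, forward: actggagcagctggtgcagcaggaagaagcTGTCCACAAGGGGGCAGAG
Tcra/Tcrd site 23 (Trav17), chr14:53804423-53804471, reverse: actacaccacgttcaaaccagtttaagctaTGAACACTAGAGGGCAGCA
Tcra/Tcrd site 24 (Trav17), chr14:53806369-53806417, forward: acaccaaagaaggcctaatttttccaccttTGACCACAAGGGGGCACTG
Tcra/Tcrd site 29 (Trdv4), chr14:54059931-54059979, forward: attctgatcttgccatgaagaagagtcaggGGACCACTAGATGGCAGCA
Tcra/Tcrd site 30 (Trdv4), chr14:54064680-54064728, forward: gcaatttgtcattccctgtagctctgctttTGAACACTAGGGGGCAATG
Tcra/Tcrd site 31 (Traj61), chr14:54153030-54153078, reverse: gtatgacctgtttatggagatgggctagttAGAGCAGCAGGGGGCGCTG
Tcrb site 8 (Trbv14), chr6:41137140-41137188, forward: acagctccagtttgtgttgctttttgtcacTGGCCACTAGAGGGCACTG

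To compare the lists of the 2 genotypes, peaks were first counted by locus, organ and genotype. Fewer peaks were listed in the mutant in every locus and organ. The wild-type lists held 44 peaks for brain, 22 for heart and 57 for lung, and the mutant lists 28, 8 and 19. For brain, heart and lung the log2 ratios of mutant to wild-type counts were -0.65, -1.46 and -1.58, whereas those of the complete lists were 0.09, -0.87 and -0.45. Their 95% counting intervals were -1.33 to 0.03, -2.60 to -0.32 and -2.33 to -0.84, so that the brain interval included 0. With the longer list of each pair shortened to the length of the shorter, the heart ratio was -0.70 (13 and 8 peaks) and the lung ratio -1.14.

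**Figure D2:**
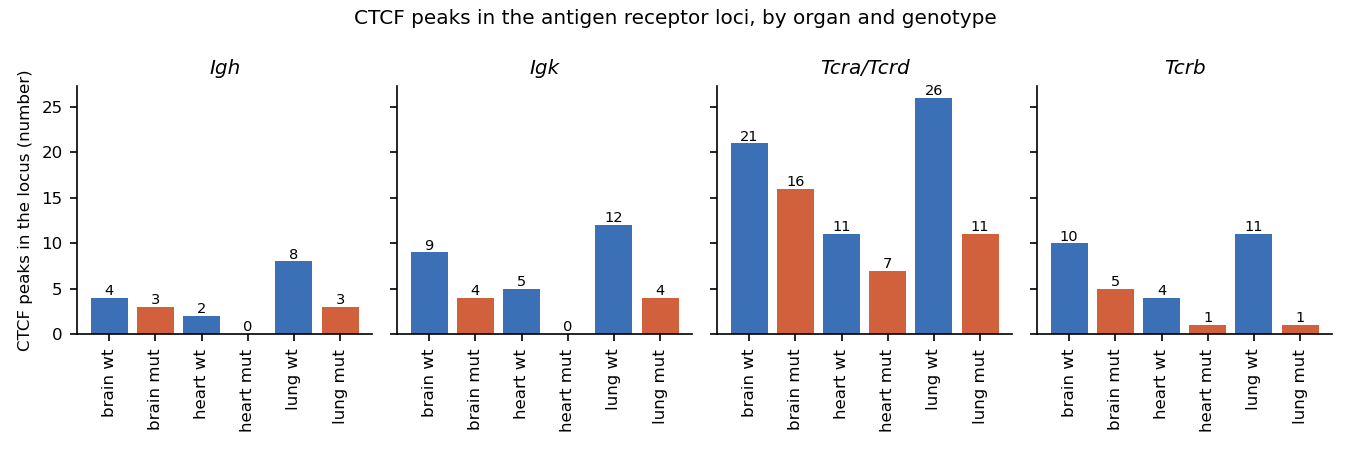
Number of CTCF peaks in each locus (bars, with the count above each) in the wild-type (blue) and mutant (orange) lists of brain, heart and lung. The heart mutant list had 0 peaks in Igh and Igk, and the lung mutant list had 1 in Tcrb against 11 in the wild type.

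Wild-type peaks of the loci were then matched with mutant peaks of the same organ by an overlap of at least 1 bp. In brain, 26 of 44 had a mutant peak (59.1%, Wilson 95% interval 44.4 to 72.3%), against 81.5% in the complete list and 81.9% of its peaks that had a core motif outside promoters. In lung, 16 of 57 had one (28.1%, 18.1 to 40.8%), against 67.0% and 70.0%. In heart, 8 of 22 had one (36.4%, 19.7 to 57.1%), against 50.6% and 50.4%. The counting intervals of brain and lung lay below the share of the complete list, and that of heart included it. Thus 18 wild-type peaks in brain, 41 in lung and 14 in heart had no mutant counterpart.

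In the opposite direction most peaks were matched. A wild-type peak overlapped 26 of 28 mutant peaks in brain, 8 of 8 in heart and 16 of 19 in lung, where the complete mutant lists gave 75.5%, 92.9% and 90.9%. Over all organs, with no such split of all merged sites set beside it, 34 sites had wild-type peaks only. Peaks of both genotypes were found at 30 sites, and 1 site had a mutant peak only. The site with a mutant peak only was Tcra/Tcrd site 25, 24 bp before Trav19, with 12 reads in mutant lung.

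To set the matched share against fold enrichment, wild-type peaks were divided into quintiles of it over all peaks of their list. These quintiles do not match peaks by reads. In wild-type lung the median fold enrichment was 11.4 in the loci and 11.5 in the complete list, whereas the median pileup was 44 and 55 reads. In wild-type brain these medians were 15.7 and 13.0, and 42.5 and 40 reads. In lung, 0 of 9 loci peaks in the lowest quintile and 0 of 15 in the next had a mutant peak, against 29.7% and 49.5% of the complete list. In the highest quintile 9 of 13 had one, against 92.8%. In brain the lowest quintile kept 1 of 6 and the highest 4 of 5, against 56.3% and 99.2%. Within each quintile of brain and lung the loci lay below the complete list, and in heart this held for the lower 3 quintiles only. Wild-type lung sites with a mutant peak had between 67 and 181 reads, with a median of 123.5, and those without had between 9 and 111, with a median of 31.

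**Figure D3:**
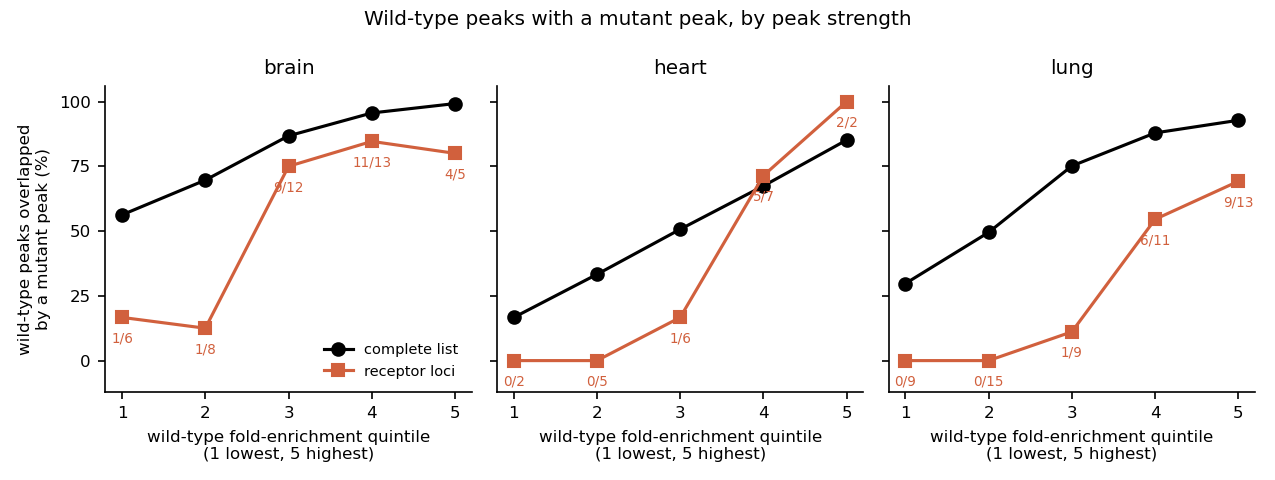
Percentage of wild-type peaks overlapped by a mutant peak of the same organ, by quintile of wild-type fold enrichment, for the complete list (black circles) and the receptor loci (orange squares, with counts). In brain and lung the orange points lie below the black in every quintile, which matches peaks by fold enrichment and not by reads.

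Where both genotypes had a peak, pileups were divided by the genome background of their list and compared as a log2 ratio of mutant to wild type. In brain the 26 shared sites had a median of -0.57, against -0.04 over 28896 shared sites. In lung the 16 shared sites had -0.76 against -0.36 over 29221. In heart the 8 shared sites had -0.31 against -0.25 over 10609. The mutant value was the lower one at 21 of 26 sites in brain, against 52.1% of all shared sites, at 15 of 16 in lung, against 74.0%, and at 7 of 8 in heart, against 73.0%. The lung sign depended on the measure: with the deposited fold enrichment, which divides by the raised local background of wild-type lung, the median was 0.37 for the loci and 0.61 for all shared sites. The loci did not move together in lung. The 9 Tcra/Tcrd sites had a median of -0.36 by pileup, equal to that of all shared sites, and of 1.29 by fold enrichment, above it. The 3 Igk sites had -1.60 and -0.59, the 3 Igh sites -0.96 and 0.54, and the 1 Tcrb site -0.33 and 0.93. By fold enrichment 10 of the 16 shared lung sites were higher in the mutant, against 1 by normalised pileup. With a median of 0.61, most of all shared lung sites were also higher by fold enrichment. The 10 of 16 are thus not read as particular to the loci. In brain 5 of 26 and in heart 1 of 8 were higher by either measure.

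**Figure D4:**
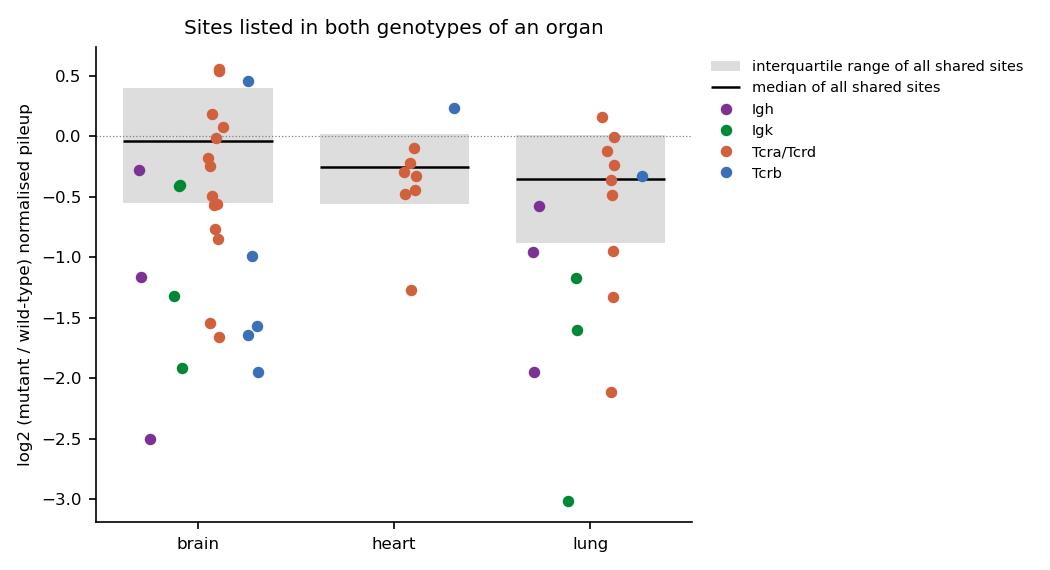
Log2 ratio of mutant to wild-type normalised pileup at each receptor site listed in both genotypes of an organ, coloured by locus; the grey band is the interquartile range and the black line the median of all shared sites. Igh and Igk points lie between -0.28 and -3.01, and the points above 0 belong to Tcra/Tcrd and Tcrb. By fold enrichment 2 of 3 Igh sites in lung were also higher in the mutant, as were most of all shared lung sites.

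Of the 31 Tcra/Tcrd sites, 18 had a mutant peak in at least 1 organ, 17 of them beside a wild-type peak of some organ, and 6 were present in all 6 lists. Mutant peaks matched 9 of 26 of its wild-type peaks in lung (34.6%), 14 of 21 in brain (66.7%) and 7 of 11 in heart (63.6%), against 67.0%, 81.5% and 50.6% of the complete lists. In the same order Igh had 3 of 8, 3 of 4 and 0 of 2, Igk 3 of 12, 4 of 9 and 0 of 5, and Tcrb 1 of 11, 5 of 10 and 1 of 4. With Tcrb site 8 this made 7 of 65 sites in all lists, against 18.6% genome-wide. At the other extreme, 23 of 65 were in a single list, against 28.8%, and 18 of these were in wild-type lung alone. Wild-type lung had the longest list. No share of all merged sites found there alone is set beside the 18, so they are not read as particular to the loci.

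The sites in all lists were concentrated at the J side of the V array. They began 337 kb before Trdd1, the first D segment of the delta chain, and of the 10 sites from there inward 6 were in all 6 lists and 9 had a mutant peak. Farther out lay 21 sites, of which 0 were in all lists and 9 had a mutant peak, 1 of them in mutant heart and 3 in mutant lung. This border was drawn after the values were seen, at the outermost site in all lists. The 0 farther out, the 6 inward and the mutant peaks of those 6 follow from it, so these counts are no test of a difference by position.

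Site 23 (chr14:53804023-53804715), 2215 bp before Trav17, had the highest mean rank of the locus, from the ranks of fold enrichment within each list. It had 163 wild-type and 140 mutant reads in lung, 92 and 159 in brain, and 42 and 38 in heart. After scaling, the log2 ratio was -0.12 in lung, 0.54 in brain and -0.29 in heart. Site 24, 227 bp before the same segment, had 147 and 98, 83 and 104, and 32 and 26 reads in the same order. The motifs of these neighbours point away from each other, that of site 23 toward the outer V segments and that of site 24 toward the constant genes.

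Sites 29 and 30 lie 53.5 and 48.7 kb before Trdd1, at the inner end of the V array before Trdv4, the last V segment ahead of Trdd1. Site 29 had 139 wild-type and 129 mutant reads in lung, 95 and 166 in brain, and 39 and 37 in heart. Site 30 had 169 and 176, 110 and 148, and 44 and 35. Its normalised pileup was higher in mutant lung than in wild-type lung, with a log2 ratio of 0.16, and it was the only site of the loci for which this held. By fold enrichment 10 of 16 shared lung sites of the loci were higher, as were most of all shared lung sites. No peak of any list fell between Trdv4 and Trdd1.

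Site 31 lies 1976 bp from Traj61, at the start of the long run of alpha J segments. It had 133 wild-type and 105 mutant reads in lung, 41 and 43 in brain, and 30 and 31 in heart, so that brain and heart were nearly equal before scaling. Its motif points away from the constant gene Trac, opposite to most of the V array. Sites 29 and 30 on one side of the delta chain segments and site 31 on the other thus had motifs that face each other.

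Many Tcra/Tcrd sites sat directly before a V segment. Of the 30 sites in the V array, 19 lay upstream of the annotated start of a V segment by 24 to 288 bp, with a median of 149 bp, where V promoters are found. All 19 motifs pointed toward the constant genes, the direction in which the V segment is transcribed. Of these 19 sites 11 had a mutant peak in some organ, and of the other 11 sites of the array 6 did. No site of Igh, Igk or Tcrb lay in that position, although 4 Tcrb sites lay 476 to 626 bp before Trbv10, Trbv12-1, Trbv12-2 and Trbv12-3.

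The sequence before the V segments followed the same division. A core motif lay within 300 bp upstream of 73 of 136 annotated Tcra/Tcrd V segments (53.7%), and 72 of the 73 were on the strand of the V segment. The share was 6.63% of 196 in Igh, 1.70% of 176 in Igk and 17.1% of 35 in Tcrb. Over 54611 genes outside the loci it was 11.0%, with 53.0% of the motifs on the strand of the gene. Thus 18 of 73 Tcra/Tcrd V segments with such a motif had a listed site. Many Tcra/Tcrd V segments have near-identical copies, and only uniquely mapped reads were kept by the authors. How much of the remainder is due to reads discarded from copies was not tested.

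The start of Trav3-4 (chr14:53776706-53777005, forward strand, 250 bases before and 50 after the annotated start) is shown as an example, with the core motif of site 22 in capitals ending 65 bp before the start.
Trav3-4 start: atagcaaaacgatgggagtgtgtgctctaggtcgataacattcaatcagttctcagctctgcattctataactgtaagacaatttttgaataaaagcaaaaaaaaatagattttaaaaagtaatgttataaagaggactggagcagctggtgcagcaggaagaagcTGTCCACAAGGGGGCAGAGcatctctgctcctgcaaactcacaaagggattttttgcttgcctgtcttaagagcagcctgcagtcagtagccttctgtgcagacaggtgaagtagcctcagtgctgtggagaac

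This site had 97 wild-type and 36 mutant reads in lung, 61 and 49 in brain, and 34 and 30 in heart, with log2 ratios of -1.33, -0.56 and -0.33. The same position before the related segment Trav3-3 (site 17) had 93 and 45 reads in lung, 69 and 81 in brain, and 27 in wild-type heart alone. That before Trav3-1 (site 1) had 9 reads in wild-type lung and no other peak.

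Duplicated V segments allowed the same motif to be compared at several places. Over the loci 14 sites shared 6 core sequences. Sets of 3 were found before Trav10d, Trav10n and Trav10, with 1 core sequence, and before Trav8d-2, Trav8n-2 and Trav8-2, with another. Related sites lie 1653 to 1775 bp before Trav16, Trav16n and Trav16d-dv11, of which the sites at Trav16 and Trav16n share their core sequence. The Trav10 set and the Trav16 set are printed to show how alike the copies are.
Site 2 (Trav10d), chr14:52810745-52810793, forward: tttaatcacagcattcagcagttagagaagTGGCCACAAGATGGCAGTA
Site 6 (Trav10n), chr14:53121862-53121910, forward: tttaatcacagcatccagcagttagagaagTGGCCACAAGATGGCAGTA
Site 11 (Trav10), chr14:53505538-53505586, forward: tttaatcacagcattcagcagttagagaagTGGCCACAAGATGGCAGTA
Site 4 (Trav16d-dv11), chr14:53045496-53045544, forward: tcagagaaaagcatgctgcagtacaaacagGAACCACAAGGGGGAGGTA
Site 9 (Trav16n), chr14:53349281-53349329, forward: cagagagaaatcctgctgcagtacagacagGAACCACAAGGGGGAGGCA
Site 21 (Trav16), chr14:53741423-53741471, forward: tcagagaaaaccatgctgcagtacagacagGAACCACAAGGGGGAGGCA

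The 3 Trav10 copies were listed in both wild-type brain and wild-type lung. In brain they had 32, 41 and 49 wild-type reads from Trav10d to Trav10n to Trav10, and only Trav10 was listed in the mutant, with 20 reads. In lung they had 22, 44 and 55 wild-type reads, and the mutant listed none. No copy was listed in heart of either genotype. The 3 Trav8 copies had 20, 38 and 79 reads in wild-type lung, and only the copy at Trav8-2 was listed in mutant lung, with 17 reads.

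The Trav16 copies carried the upstream motif, TGCAGTNCC, at its usual spacing. This motif is bound by the last zinc fingers of CTCF, the part of the protein in which R567W lies, and genome-wide 80.7% of sites that matched it with at most 1 mismatch had it ending 5 bp before the 19-column core. The Trav16 copies each matched with 1 mismatch at that spacing. They had 39, 33 and 73 reads in wild-type lung for Trav16d-dv11, Trav16n and Trav16, and mutant lung listed none. The only mutant peak was 15 reads in brain at Trav16d-dv11, where wild-type brain had no peak.

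Over all loci the upstream motif was not a common feature. Only 1 core motif per site was searched. With at most 2 mismatches within 30 bases the upstream motif was found at 15 of 65 sites, against 26.7% of all core motifs. In the mirrored window downstream it was found at 14 of 65, against 17.1%. At the usual spacing or 1 bp more it was found at 8 of 65 sites, against 18.8% of core motifs genome-wide. Igh site 6 entered by its element 4. Its element 5, printed above, matches with 1 mismatch at the usual spacing and is not in these counts. Element 2, which matches with 2 mismatches, was not searched either, but its site 8 is counted by element 1. In lung 7 of the 8 counted sites had a wild-type peak and 2 of the 7 a mutant peak. Of the other 50 wild-type sites, Igh site 6 among them, 14 had one. In brain the counts were 2 of 5 and 24 of 39, and in heart 0 of 3 and 8 of 19. These shares rest on few sites and were not tested against each other. Genome-wide the shares with a mutant peak were 60.1% with the spaced motif and 74.2% without in lung, 75.4% and 85.4% in brain, and 41.9% and 55.7% in heart.

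The 14 sites with a shared core sequence are set beside the other 51, with no test of the difference. Of the 14, wild-type lung listed 13 and mutant lung 2, and wild-type brain 10 and mutant brain 4. Of the other 51, wild-type lung listed 44 and mutant lung 17, and wild-type brain 34 and mutant brain 24. Whether the mapping of reads to near-identical copies has a part in this was not tested.

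In the V arrays 47 of 54 motifs pointed toward the constant genes. They were 27 of 30 in Tcra/Tcrd (90.0%, 74.4 to 96.5%), 10 of 10 in Tcrb (72.3 to 100%), 3 of 3 in Igh (43.9 to 100%) and 7 of 11 in Igk (63.6%, 35.4 to 84.8%). Genome-wide 49.7% of core motifs were on the forward strand, a share that lay within the intervals of Igh and Igk and below those of Tcra/Tcrd and Tcrb. Neighbouring core motifs genome-wide had the same strand in 52.4% of pairs. In Tcra/Tcrd 76.7% of 30 neighbouring pairs had the same strand, with a run of 12, and in Tcrb 90.9% of 11, with a run of 10. Some Tcra/Tcrd sites and a pair of Igk sites share their core sequence, as given above, so not all sites are independent of each other.

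Past the V arrays the direction was mostly the other way. Beyond the constant genes 0 of 5 motifs had the V-to-C direction, as the 4 sites beyond Igha and the site beyond Trbc2 all point back toward the V segments. The site near Ighd1-1, Tcrb site 11 before Trbd1 and Tcra/Tcrd site 31 before the alpha J segments had the same backward direction.

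**Figure D5:**
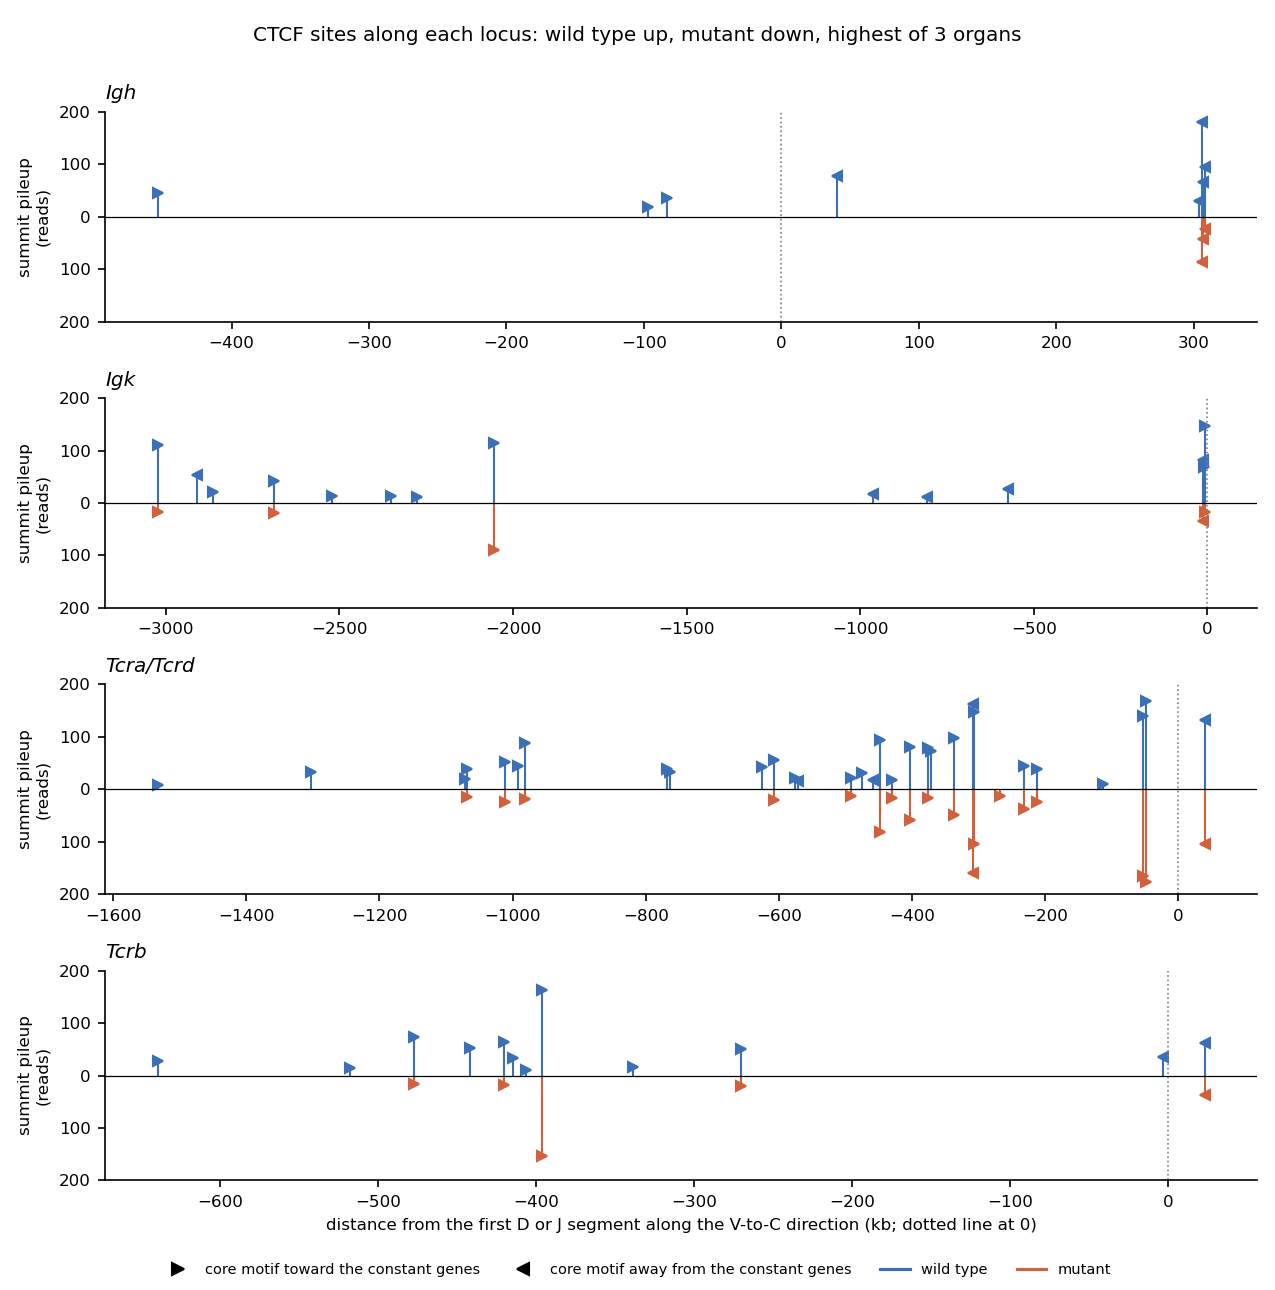
Position of each site in kb from the first D or J segment along the V-to-C direction (0, dotted line) against its highest summit pileup in 3 organs, with wild type drawn up and mutant down; triangles give the direction of the core motif. V-array triangles point right, toward the constant genes, in all Tcrb and Igh sites and in 27 of 30 Tcra/Tcrd sites, and the sites right of the dotted line point left.

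Tcrb had 12 sites, of which 10 lay in the V array. Site 8 (chr6:41136888-41137423), 1563 bp beyond Trbv14, had the highest motif score of the loci, 24.09. It had 163 wild-type and 121 mutant reads in lung, 94 and 153 in brain, and 36 and 47 in heart. It was the only Tcrb site listed in mutant heart or mutant lung, whereas wild-type heart listed 4 and wild-type lung 11.

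The other Tcrb sites in mutant brain were weaker. Site 3 before Trbv4 had 52 wild-type and 16 mutant reads in brain, site 5 before Trbv12-1 had 50 and 19, and site 10 before Trbv28 had 50 and 20. Their log2 ratios were -1.95, -1.64 and -1.57, and no more than 3.33% of all shared brain sites lay lower than any of them. Sites 4, 6, 9 and 11 had wild-type peaks in at least 2 organs and no mutant peak. Site 4, 626 bp before Trbv10, was the strongest of these, with 51, 13 and 52 reads in wild-type brain, heart and lung.

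Between the V array and Trbd1, a gap of 251 kb from Trbv30, the lists held 1 site. Tcrb site 11 lies 3016 bp before Trbd1 and had 25 reads in wild-type brain and 35 in wild-type lung. At the other side of the D, J and C segments lies site 12, 1131 bp from Trbv31, the inverted V segment beyond Trbc2. It had 62 wild-type and 37 mutant reads in brain and 28 in wild-type lung.

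The 4 Igh sites beyond Igha span chr12:113219899-113224515 and hold the 7 motifs printed above, in the array that forms the far border of the locus. Both wild-type brain and wild-type lung had a summit within 60 bp of each of the 7, and wild-type heart of 5. Mutant brain and mutant lung each had a summit at 5 and mutant heart at 0.

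Element 4, in site 6, had the highest pileup of the array in wild-type lung and heart and in mutant brain and lung. It had 181 wild-type and 87 mutant reads in lung, 51 and 50 in brain, and 33 in wild-type heart. Element 1 had 95 and 23 reads in lung, 30 and 14 in brain, and 14 in wild-type heart. Element 2, in the same site as element 1, had 67 reads in wild-type brain, 27 in wild-type heart and 102 in wild-type lung, and no mutant list had a summit there. The brain ratio of their site, -2.51 on the log2 scale, sets element 2 of the wild type against element 1 of the mutant, the best summit of each list. The motif score of element 2, 9.32, was the lowest of the 7. By its printed bases, element 2 also matches the upstream motif with at most 2 mismatches at the usual spacing. Elements 1, 3 and 5 match it by the same rule and were listed in both mutant brain and mutant lung. Element 7, the one nearest to Igha, had 18 and 29 reads in wild-type brain and lung. Like element 2, it was in no mutant list.

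The remaining elements of the array were listed in both mutant brain and mutant lung. Element 3 had 32 and 17 reads in brain and 67 and 42 in lung. Element 5 had 35 and 30 in brain and 89 and 21 in lung, and element 6 had 37 and 16 in brain and 77 and 16 in lung. Every element listed in both genotypes had the lower pileup in the mutant before scaling.

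Inside Igh, 4 sites were listed in wild-type lung and in no other list. One of them, with 78 reads, lies 5705 bp from Ighd1-1 (chr12:113487762-113488079) and points away from the constant genes. The other 3 lie 76, 100 and 80 bp past the end of the V segments Ighv11-1, Ighv5-6 and Ighv2-3, with 46, 19 and 35 reads. That is the side on which the recombination signal of a V segment lies, the heptamer and nonamer recognised by the RAG recombinase. The segments' ends are shown on the V strand, in which the first capitals are a heptamer-like CACAATG and the next capitals the core motif.
Ighv11-1, chr12:113981793-113981908, reverse: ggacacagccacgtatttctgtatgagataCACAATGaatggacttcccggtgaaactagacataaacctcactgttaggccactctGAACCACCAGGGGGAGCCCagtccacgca
Ighv5-6, chr12:113625422-113625535, reverse: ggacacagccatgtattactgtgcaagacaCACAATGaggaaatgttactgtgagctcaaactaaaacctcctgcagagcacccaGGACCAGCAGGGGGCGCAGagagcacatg
Ighv2-3, chr12:113611098-113611216, reverse: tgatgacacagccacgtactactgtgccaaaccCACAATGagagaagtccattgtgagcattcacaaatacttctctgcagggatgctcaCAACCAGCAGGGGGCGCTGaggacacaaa

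The heptamer-like letters start 0 to 3 bases past the annotated segment end, and the core motif starts 48 to 50 bases after them. CACAATG was searched after these windows were seen, and it lies within 25 bases past the end of 5.10% of the 196 Igh V segments, against 55.6% for the common heptamer CACAGTG. Both were searched on the V strand only.

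Core motifs in this position were common in some Igh families. A motif lay within 200 bp past the end of 47 of 196 Igh V segments, all 47 on the strand of the V segment. The families Ighv2 and Ighv5, nearest to the D segments, had it at 20 of 33, Ighv1 and Ighv8, farther out, at 1 of 109, and the other families at 26 of 54. The share was 12.5% of Tcra/Tcrd, 5.71% of Tcrb and 1.14% of Igk V segments, and 4.52% of 54611 genes outside the loci. Of the 47 Igh segments 3 had a listed peak, each in wild-type lung alone, and 2 of them belong to Ighv2 or Ighv5. No site of any list fell between the innermost V segment, Ighv5-1, and the first annotated D segment, Gm16968. This depends on Gm16968 as the border. Igh site 4, 5705 bp from Ighd1-1, lies 40.2 kb past Gm16968 and so was counted with the D, J and C segments.

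Igk had 14 sites, of which 5 had a mutant peak in brain or lung and 0 in heart. Of the 14, sites 12 to 14 lie in the 18.4 kb between Igkv3-1 and Igkj1, a stretch known to hold the Cer and Sis elements that regulate V choice. Site 14, 8155 bp before Igkj1, had 147 reads in wild-type lung and 32 in wild-type heart, the highest pileups of the locus in those lists, and 91 in wild-type brain, where site 8 had 100. It had no peak in mutant brain or heart and 17 reads in mutant lung. By normalised pileup its log2 ratio of -3.01 in lung was the lowest of the loci, and 0.19% of all shared lung sites lay below it. By deposited fold enrichment it went from 17.9 to 7.43 in lung and was not the lowest. On that scale Tcra/Tcrd site 20 went from 18.3 to 7.43 in lung, and Igh site 8 from 25.2 to 4.97 in brain.

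Site 13, the neighbour of site 14 on the V side, had 30 and 69 reads in wild-type brain and lung and no mutant peak. Site 12, with 2 motifs on the reverse strand, differed from its neighbours. At its first motif it had 82 wild-type and 38 mutant reads in lung and 29 and 26 in brain, and at the next 38 and 34 in lung and 24 and 28 in brain. The motif of site 12 points away from the constant gene Igkc, and those of sites 13 and 14 point toward it.

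In the Igk V array site 8, 2545 bp before Igkv2-95-1, ranked highest over the 6 lists. It had 114 wild-type and 35 mutant reads in lung, 100 and 89 in brain, and 22 in wild-type heart. Site 1, near the outer border, had 54 and 17 reads in brain, 31 in wild-type heart and 111 in wild-type lung. Site 2 had 54, 22 and 47 reads in wild-type brain, heart and lung and no mutant peak. None of the 11 sites of the array lay within 1 kb of the end of a V segment.

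Igk also held a pair of copies with an identical core sequence at the same distance, 2982 bp, before Igkv17-127 (site 3) and Igkv17-121 (site 4). Site 3 had 20 reads in both wild-type brain and lung and no mutant peak. Site 4 had 42 wild-type and 20 mutant reads in brain and 17 in mutant lung, with no wild-type lung peak.

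Organs overlapped in the wild type. All 22 sites listed in wild-type heart were also listed in wild-type brain, and 21 of them in wild-type lung. Brain and lung shared 37 sites, 20 were listed in lung as the only wild-type organ and 6 in brain as the only one. No shares over the complete lists are set beside these counts, so they are not read as particular to the loci. Just outside the loci, within 50 kb of a border, the lists held 15 wild-type and 11 mutant peaks for lung, 14 and 12 for brain, and 8 and 2 for heart.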

How the data were processed

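CTCF was mapped by ChIP-seq in 3 organs of wild-type and mutant embryos. Chromatin of HEK293T, a line of human kidney cells, served as spike-in. Adapter trimming by the authors used Trim Galore, alignment used Bowtie2 against joined mm10 and hg38 genomes, and peaks of each library were called with MACS2 on uniquely mapped reads. The spike-in does not enter a peak list, and which input served as control is not given in the sources used here. The 6 input libraries were not analysed here.

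As fold enrichment the authors deposited a ratio, summit pileup over local background, with a pseudocount of 1 on each. The deposited p-values and q-values are −log10 values made by the authors' peak caller. A region with several summits entered as 1 peak, represented by its summit of largest fold enrichment, and regions of the 6 lists overlapping by at least 1 bp were merged. Pileup and local background were solved from fold enrichment and p-value, and the lowest background of a list was taken as its genome background. The total read number is not in the lists, so the precision of each value follows from its pileup and from the complete list. Shares have Wilson 95% intervals.

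Genes came from GENCODE release M21 and sequence from GRCm38. The core motif matrix was built on 2000 peaks outside the loci, those with the largest fold enrichment in wild-type brain, of which 1943 contributed, and called at p of 1e-04 or less within 100 bp of the summit. The upstream motif TGCAGTNCC was sought with at most 2 mismatches within 30 bases before the core motif on its strand. Pileup recovery and motif search were tested on simulated data. Results were recomputed with a −log10 q minimum of 5, every summit line, lists of equal length, other overlaps, locus borders at the outermost gene segments, other motif settings and fold enrichment in place of pileup.

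The members and lists were chosen with earlier results of these data known. Sites were named by rule: in each locus the site of highest mean rank, those between V and D or J segments, the 3 strongest beyond the constant genes, and those with a wild-type peak in at least 2 organs and no mutant peak. Sites near V segments, copies and sites in all lists were added after their values were seen. Scripts ran in Python 3.11.15 with matplotlib 3.10.9, scipy 1.17.1, pandas 2.3.3, numpy 2.4.6 and samtools 1.23.1.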

Additional observations from a re-analysis of the deposited data

Results flagged for a closer look

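At 4 sites the mutant had the higher normalised pileup in brain and the lower one in lung, and this difference between the organs was not tested. The log2 ratio was 0.54 in brain and -0.12 in lung at Tcra/Tcrd site 23, and 0.079 and -0.48 at site 24, both before Trav17. It was 0.56 and -0.01 at Tcra/Tcrd site 29, before Trdv4, and 0.46 and -0.33 at Tcrb site 8, beyond Trbv14. By deposited fold enrichment, all 4 were higher in mutant lung, from 21.9 in the wild type to 54.6 at site 23, 13.6 to 33.2 at site 24, 15.9 to 48.2 at site 29 and 26.5 to 50.3 at Tcrb site 8. On that scale site 24 was lower in mutant brain, 25.4 against 31.1, and the other 3 were higher. The medians of all shared sites were -0.04 in brain and -0.36 in lung by normalised pileup, and 0.04 and 0.61 by fold enrichment.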

How the results depend on the processing

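The log2 ratios of peak number stayed below 0 in the 3 organs under every alternative run, and the retained shares stayed within their counting intervals. With lists of equal length, which shorten the wild-type heart and lung lists, the log2 ratio of peak number was -0.70 in heart and -1.14 in lung, and the retained share was 53.8% of 13 in heart and 38.1% of 42 in lung, against 71.3% and 81.0% of the complete lists. With sites of shared core sequence left out, an alternative chosen after seeing the data, it was 34.1% in lung, 64.7% in brain and 40.0% in heart. The merged sites numbered 60 at a −log10 q of at least 5 and 61 with borders at the outermost segments, and 7 remained in all lists at the stricter q. The core motif share was 89.2% at a motif p of 1e-05. With 1 core motif searched per site, the upstream motif was found at 4 sites with at most 1 mismatch. Chosen after seeing the data, it was found at 8 sites at the usual spacing. Element 5 of Igh site 6, which meets both rules, was not searched. The lung pileup ratio changed sign, to 0.37, with the deposited fold enrichment, by construction of that measure in a list with a raised local background, and was -0.95 over summits within 100 bp of each other. No paired analysis was possible because the labels number no replicates and each organ and genotype had 1 library, so that no replicate could be left out either. The organs were not taken as replicates of a genotype. Depth limits the weakest sites, since pileups of 7 to 9 reads were the lowest listed.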
